A study of Homo sapiens with 12 samples.

Results

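Transcript levels of 10 genes of the heat shock response were followed in MDA-MB-231 cells, a human breast cancer line, in which the gene for ferrochelatase (FECH), the enzyme that inserts iron into protoporphyrin to make heme, had been targeted with an siRNA. The members were taken by name: the transcription factor gene HSF1 and the chaperone and co-chaperone genes HSPH1, DNAJB1, DNAJA1, HSPB8, BAG3, HSP90AA1, HSPA8, HSPD1 and HSPE1. A probe set was given to a member when its gene symbol in the deposited table was that name alone. Of the 10 members, 9 had 1 such probe set each among the 28869 on the array, and all 9 were among the 12151 genes bright enough to be tested. HSF1 is carried by 1 probe set that the table gives to HSF1 and LOC642255 together, so that signal is described apart and cannot be given to HSF1 alone.

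The 12 arrays fall into 4 groups of 3, all of the same cell line grown in RPMI medium with serum. One group received the FECH siRNA at 15 nM together with 0.1 mM 5-aminolevulinic acid (5-ALA), the precursor from which cells make porphyrins and heme. A second received the commercial Allstar control siRNA at 15 nM, also with 0.1 mM 5-ALA. Another received 0.1 mM 5-ALA only, and the last was untreated. Both siRNA groups therefore carry 5-ALA, and no group had siRNA without it. FECH was targeted with 1 siRNA of 19 nucleotides, gaauauccucuugguuccg, so the effect of losing FECH and any other effect of this sequence cannot be told apart. Whether the 3 samples of a group were separate cultures is not stated in the labels, and a p-value here covers only the spread between these samples, which may be technical.

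The signal of FECH went with the labels. It averaged 6.53 ± 0.09 on the log2 scale with FECH siRNA, against 8.55 ± 0.05 with control siRNA, 8.50 ± 0.12 with 5-ALA only and 8.49 ± 0.09 without treatment (SD, n = 3 each). With FECH siRNA it was 4.06-fold lower than with control siRNA (limma adjusted p = 1.72e-09). Of 7 markers of the cell line, 6 were above the filter level (7.29 on the log2 scale), and SPARC was not. Of 8 markers of luminal epithelium, 6 were above it (ERBB2, EPCAM, CDH1, GATA3, FOXA1 and KRT19), and ESR1 and PGR were below. Of 7 markers of fibroblasts, 5 were above it (COL1A1, COL1A2, COL3A1, PDGFRB and LUM), and PDGFRA and DCN were below. Of 7 markers of blood and endothelium, PTPRC, CD3E, VWF, CDH5 and HBB were below it and only CD14 and PECAM1 were above. The summed linear signal of the cell line's markers was 39600 to 41100 with FECH siRNA, 41100 to 43200 with control siRNA, 41800 to 43800 with 5-ALA only and 40800 to 44100 without treatment. For luminal epithelium it was 2530 to 2610 with FECH siRNA, 2800 to 3050 with control siRNA, 2960 to 3230 with 5-ALA only and 2990 to 3280 without treatment. For fibroblasts it was 1960 to 2130 with FECH siRNA, 2240 to 2620 with control siRNA, 1800 to 1970 with 5-ALA only and 1800 to 2030 without treatment. For blood and endothelium it was 1390 to 1420 with FECH siRNA, 2310 to 2350 with control siRNA, 1900 to 2160 with 5-ALA only and 2100 to 2220 without treatment. The sums were thus lower with FECH siRNA than with control siRNA for these 3 lists of other cell types. The cell line's own sums with FECH siRNA reached at most the lowest with control siRNA. For fibroblasts the sums with FECH siRNA overlapped those of both groups without siRNA. The part of these markers in the results was not tested. By the labels all samples are of this 1 cell line. The lower sum for blood and endothelium went with CD14 (9.73 with FECH siRNA, 10.64 with control siRNA) and PECAM1 (7.24 and 8.47). PTPRC, CD3E, VWF, CDH5 and HBB differed little between these groups, the most being CDH5 at 7.20 and 7.08. In bulk samples a change in cells and a change in RNA per cell cannot be told apart. The third untreated array stood apart, with 416 genes more than 0.5 on the log2 scale from the mean of the other arrays of its group, against 10 to 115 on the other arrays, and none of the 9 members was among them.

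Cells meet unfolded protein with a network built around HSP70 and HSP90. HSP70 proteins bind exposed stretches of a client under the control of J-domain proteins, which bring the client and start ATP hydrolysis, and of nucleotide exchange factors, which reset the cycle. Small heat shock proteins hold unfolding clients, and chaperonins such as HSPD1 with its lid HSPE1 fold proteins inside mitochondria. HSF1 is the transcription factor that raises many of these genes when cells are heated or their proteins unfold, by binding heat shock elements, which are runs of the unit GAA in alternating orientation.

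The promoters of the members are shown because the genes share a known regulator but did not move together. Each sequence is the 250 bases before a transcription start listed by RefSeq for GRCh38.p14, written 5′ to 3′ on the strand of the gene, with matches to a heat shock element in capitals. A match was taken as 2 adjoining units (GAANNTTC or TTCNNGAA) or 3, in which such a pattern is carried on by a further unit at the same spacing. The patterns of 2 units read the same on both strands, and those of 3 units are each other's reverse complement, and every match to 3 units contains matches to 2. The windows lie at chr11:123062137-123062386 on the minus strand for HSPA8, chr9:33025023-33025272 on the plus strand for DNAJA1, chr19:14518398-14518647 on the minus strand for DNAJB1, chr13:31162389-31162638 on the minus strand for HSPH1, chr10:119651130-119651379 on the plus strand for BAG3, chr12:119178681-119178930 on the plus strand for HSPB8, chr14:102087045-102087294 on the minus strand for HSP90AA1 and chr2:197499841-197500090 on the minus strand for HSPD1.
HSPA8: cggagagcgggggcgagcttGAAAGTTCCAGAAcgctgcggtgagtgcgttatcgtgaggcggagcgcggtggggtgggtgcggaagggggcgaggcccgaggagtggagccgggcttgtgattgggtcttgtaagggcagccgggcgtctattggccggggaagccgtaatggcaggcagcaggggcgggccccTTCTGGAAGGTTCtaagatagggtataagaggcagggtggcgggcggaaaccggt
DNAJA1: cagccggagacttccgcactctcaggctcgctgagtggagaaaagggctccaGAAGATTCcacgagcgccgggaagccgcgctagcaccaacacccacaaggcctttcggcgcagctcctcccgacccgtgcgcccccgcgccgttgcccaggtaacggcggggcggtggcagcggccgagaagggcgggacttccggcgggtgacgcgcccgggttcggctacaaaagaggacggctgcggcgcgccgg
DNAJB1: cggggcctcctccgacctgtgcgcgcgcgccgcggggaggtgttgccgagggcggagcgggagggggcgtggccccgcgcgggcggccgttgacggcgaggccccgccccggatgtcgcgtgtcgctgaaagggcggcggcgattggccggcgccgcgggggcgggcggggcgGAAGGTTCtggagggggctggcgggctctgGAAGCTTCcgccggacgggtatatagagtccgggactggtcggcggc
HSPH1: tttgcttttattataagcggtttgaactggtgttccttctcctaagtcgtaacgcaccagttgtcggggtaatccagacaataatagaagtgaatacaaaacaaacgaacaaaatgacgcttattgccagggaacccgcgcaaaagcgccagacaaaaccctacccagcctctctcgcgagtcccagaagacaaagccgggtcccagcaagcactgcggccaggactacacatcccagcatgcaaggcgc
BAG3: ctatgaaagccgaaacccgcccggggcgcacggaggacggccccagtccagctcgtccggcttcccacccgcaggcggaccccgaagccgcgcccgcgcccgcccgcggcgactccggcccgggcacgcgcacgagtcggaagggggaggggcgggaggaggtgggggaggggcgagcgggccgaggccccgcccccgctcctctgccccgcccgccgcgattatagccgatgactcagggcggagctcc
HSPB8: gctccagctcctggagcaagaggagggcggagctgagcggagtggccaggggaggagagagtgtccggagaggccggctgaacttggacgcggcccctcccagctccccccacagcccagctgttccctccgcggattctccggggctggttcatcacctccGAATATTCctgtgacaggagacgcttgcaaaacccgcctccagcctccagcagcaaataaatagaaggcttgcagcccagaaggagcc
HSP90AA1: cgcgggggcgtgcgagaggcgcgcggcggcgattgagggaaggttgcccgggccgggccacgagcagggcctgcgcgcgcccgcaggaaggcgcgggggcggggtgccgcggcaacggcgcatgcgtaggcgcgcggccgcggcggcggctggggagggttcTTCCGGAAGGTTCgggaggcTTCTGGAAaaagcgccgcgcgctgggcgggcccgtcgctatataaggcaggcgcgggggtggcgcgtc
HSPD1: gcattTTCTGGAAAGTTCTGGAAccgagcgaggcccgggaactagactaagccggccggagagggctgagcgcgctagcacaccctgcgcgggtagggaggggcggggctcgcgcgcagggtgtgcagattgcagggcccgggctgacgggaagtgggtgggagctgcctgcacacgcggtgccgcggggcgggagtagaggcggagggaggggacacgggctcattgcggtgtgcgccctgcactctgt

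HSPA8 held 2 matches of 3 units, which began 230 and 55 bases before its start. HSP90AA1 held 1 at the second of its listed starts, 88 bases before it, and HSPD1 held 2 that overlap at the second of its listed starts, from 245 bases before it. DNAJB1 held 2 matches of 2 units at the second of its 3 listed starts, 77 and 47 bases before it. DNAJA1 and HSPB8 held 1 each, 198 and 88 bases before the start. The windows of HSPH1, BAG3 and HSPE1 held no match, which says only that these letters are not in them. HSPE1 is transcribed away from HSPD1, with 538 bases between its start and the second start of HSPD1, and the matches in the HSPD1 window lie 294 to 311 bases before the start of HSPE1. In all, 6 of the 9 genes had a match to 2 units (66.7%) and 3 a match to 3 units (33.3%). Of the 27305 genes with a window, 14.0% had a match to 2 units and 0.557% to 3. For the 9487 tested genes with a window these shares were 11.8% and 0.453%. Among 95 other chaperone genes, from the lists described below, these shares were 24.2% and 5.26%. A match is a description of letters and was not tied to binding in these cells.

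FECH siRNA and control siRNA, given at the same dose and with the same 5-ALA, were compared to see what follows from targeting FECH. Of the 9 members, HSPB8, DNAJB1, BAG3 and HSP90AA1 rose, HSPH1 and DNAJA1 fell, and HSPA8, HSPD1 and HSPE1 did not pass the test. The changes were between 1.16-fold and 1.62-fold in size. Of all genes tested, 38.3% passed in this comparison, 20.4% as higher and 17.8% as lower. Of the members, 6 of 9 were called, or 66.7%. The median size of the log2 difference was 0.42 for the members, against 0.16 for all genes. The 10 genes were chosen with earlier results of these arrays known, so these counts describe the members and were not tested as a group. The plot of all 10 signals by array shows that the separation of the FECH siRNA arrays from the rest was clearest for HSPH1, DNAJA1 and HSPB8.

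HSPH1, an HSP110 protein that acts as a nucleotide exchange factor for HSP70 and keeps unfolded clients soluble, showed the largest difference among the members in that comparison. Its log2 signals were 9.66, 9.60 and 9.77 with FECH siRNA, 10.45, 10.20 and 10.48 with control siRNA, 10.48, 10.36 and 10.62 with 5-ALA only, and 10.56, 10.31 and 10.72 without treatment. The 3 FECH siRNA arrays were below all 9 others, and the other groups overlapped one another. HSPH1 was 1.62-fold lower with FECH siRNA than with control siRNA (log2 difference -0.70, SE 0.11, limma adjusted p = 0.000175). Within the 3 runs of sample numbers, each of which holds 1 array of every group, the differences were -0.79, -0.59 and -0.71.

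DNAJA1, a J-domain protein of the cytosol, had log2 signals of 9.37, 9.24 and 9.26 with FECH siRNA and 9.81, 9.80 and 9.84 with control siRNA. With 5-ALA only they were 9.82, 9.90 and 10.06, and without treatment 9.85, 9.86 and 10.02. Again the FECH siRNA arrays were all below the other 9, by more than the spread within any group. DNAJA1 was 1.44-fold lower with FECH siRNA than with control siRNA (log2 difference -0.53, SE 0.07, limma adjusted p = 6.8e-05). Over the 12 arrays its signal went with that of HSPH1 (Pearson r = 0.96 over 12 arrays that share the same 4 groups, given as a description).

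DNAJB1, the J-domain protein that pairs with HSP70 in breaking up protein aggregates, moved the other way. Its log2 signals were 11.22, 11.15 and 11.19 with FECH siRNA, 10.81, 10.72 and 10.70 with control siRNA, 11.00, 11.16 and 11.26 with 5-ALA only, and 11.05, 11.08 and 11.16 without treatment. Here the control siRNA arrays were the ones apart, below all 9 others, while the FECH siRNA arrays overlapped both groups without siRNA. DNAJB1 was 1.36-fold higher with FECH siRNA than with control siRNA (log2 difference 0.44, SE 0.07, limma adjusted p = 0.00021). It did not pass the test against 5-ALA only (log2 difference 0.05, 95% interval -0.11 to 0.20, limma adjusted p = 0.666) or against no treatment (0.09, 95% interval -0.06 to 0.24, limma adjusted p = 0.356). With control siRNA it was 1.32-fold lower than with 5-ALA only (log2 difference -0.40, SE 0.07, limma adjusted p = 0.00448) and 1.28-fold lower than without treatment (-0.36, SE 0.07, limma adjusted p = 0.0114). These comparisons share the control siRNA arrays. The call against no treatment was lost without the second control siRNA array (limma adjusted p = 0.0504).

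HSPB8, a small heat shock protein that works with BAG3 in sending misfolded clients to autophagy, had log2 signals of 9.21, 9.12 and 9.28 with FECH siRNA and 8.84, 8.61 and 8.60 with control siRNA. They were 8.25, 8.33 and 8.47 with 5-ALA only and 8.50, 8.30 and 8.31 without treatment. The 4 groups formed steps, with the FECH siRNA arrays highest, the control siRNA arrays next, and the arrays without siRNA lowest and overlapping. HSPB8 was 1.43-fold higher with FECH siRNA than with control siRNA (log2 difference 0.52, SE 0.09, limma adjusted p = 0.000317). With control siRNA it was 1.26-fold higher than with 5-ALA only (0.34, SE 0.09, limma adjusted p = 0.0355), and against no treatment it did not pass (0.32, SE 0.09, limma adjusted p = 0.0532). With the run as a block in the fit this last comparison passed (limma adjusted p = 0.0266), in a fit that called 10.7% of all genes. The call for control siRNA against 5-ALA only was lost without either the first or the second 5-ALA array, without any 1 of the 3 control siRNA arrays and without the first FECH siRNA array, with limma adjusted p-values of 0.0511 to 0.125.

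BAG3, an exchange factor for HSP70 and the partner of HSPB8, had log2 signals of 10.67, 10.77 and 10.47 with FECH siRNA and 10.27, 10.31 and 10.07 with control siRNA. They were 10.16, 10.46 and 10.10 with 5-ALA only and 10.36, 10.41 and 10.19 without treatment. The FECH siRNA arrays were above all others, but the gap to the highest 5-ALA array was small, and the third array of each group was the lowest of it. BAG3 was 1.34-fold higher with FECH siRNA than with control siRNA (log2 difference 0.42, SE 0.11, limma adjusted p = 0.00745), with differences of 0.40, 0.46 and 0.39 within the runs. HSPH1 and BAG3, both exchange factors for HSP70, thus lay in opposite directions, with r = -0.86 over the 12 arrays. These arrays share the same 4 groups, and for HSPH1 the third array of each group was the highest of it. The correlation is therefore given as a description.

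HSP90AA1 encodes the stress-inducible cytosolic HSP90. Its log2 signals were 12.42, 12.39 and 12.28 with FECH siRNA, 12.14, 12.11 and 12.22 with control siRNA, 12.32, 12.20 and 12.32 with 5-ALA only, and 12.37, 12.29 and 12.30 without treatment. As for DNAJB1, the control siRNA group had the lowest mean, and the FECH siRNA arrays overlapped both groups without siRNA. With FECH siRNA the gene did not pass against 5-ALA only (log2 difference 0.09, limma adjusted p = 0.312). Against no treatment it did not pass either (0.05, limma adjusted p = 0.606). HSP90AA1 was 1.16-fold higher with FECH siRNA than with control siRNA (log2 difference 0.21, SE 0.06, limma adjusted p = 0.0156). That call was lost without the first FECH siRNA array (limma adjusted p = 0.064), the second FECH siRNA array (0.056) or the second control siRNA array (0.063).

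HSPA8, the constitutive cytosolic HSP70, ranged from 13.73 to 13.80 with FECH siRNA, from 13.78 to 13.83 with control siRNA, from 13.81 to 13.82 with 5-ALA only and from 13.80 to 13.92 without treatment. The FECH siRNA arrays overlapped those with control siRNA, and lay narrowly below those with 5-ALA only and those without treatment, where the test was not passed either (log2 differences -0.04 and -0.07, limma adjusted p = 0.576 and 0.321). Its log2 difference between FECH siRNA and control siRNA was -0.03, with a 95% interval of -0.15 to 0.09 (limma adjusted p = 0.717).

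The mitochondrial pair did not pass the test in any of the 6 comparisons. HSPD1, the HSP60 chaperonin, had log2 signals of 11.60, 11.67 and 11.68 with FECH siRNA and 11.53, 11.62 and 11.63 with control siRNA (log2 difference 0.06, 95% interval -0.08 to 0.19, limma adjusted p = 0.501). With 5-ALA only HSPD1 was at 11.66, 11.70 and 11.80, and without treatment at 11.82, 11.67 and 11.77, so the control siRNA arrays lay below both groups without siRNA. HSPE1, its lid, had 8.81, 8.76 and 8.64 with FECH siRNA and 8.82, 8.56 and 9.10 with control siRNA (-0.09, 95% interval -0.37 to 0.19, limma adjusted p = 0.624). With 5-ALA only HSPE1 was at 8.88, 8.74 and 9.14, and without treatment at 8.79, 8.66 and 9.00. All 4 groups overlapped. HSPE1 varied the most between arrays of 1 group (SD 0.19 within groups, against 0.06 for HSPD1), so its interval is the widest of the 9. Over the 12 arrays HSPD1 and HSPE1, which lie head to head, correlated at r = 0.32.

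The probe set shared by HSF1 and LOC642255 had log2 signals of 9.78, 10.03 and 9.92 with FECH siRNA and 9.60, 9.67 and 9.71 with control siRNA. They were 9.58, 9.72 and 9.78 with 5-ALA only and 9.65, 9.74 and 9.72 without treatment. The lowest FECH siRNA array and the highest 5-ALA array thus both read 9.78. The shared probe set was 1.19-fold higher with FECH siRNA than with control siRNA (log2 difference 0.25, SE 0.07). The limma adjusted p was 0.0207 over 15032 probe sets, or 0.00287 with the run as a block. Of the probe sets in the fit without the block, 33.8% passed. The call was lost without single arrays: without the first control siRNA array the adjusted p was 0.0721, without the second FECH siRNA array 0.101, without the second control siRNA array 0.0505 and without the third FECH siRNA array 0.0535.

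**Figure D1:**
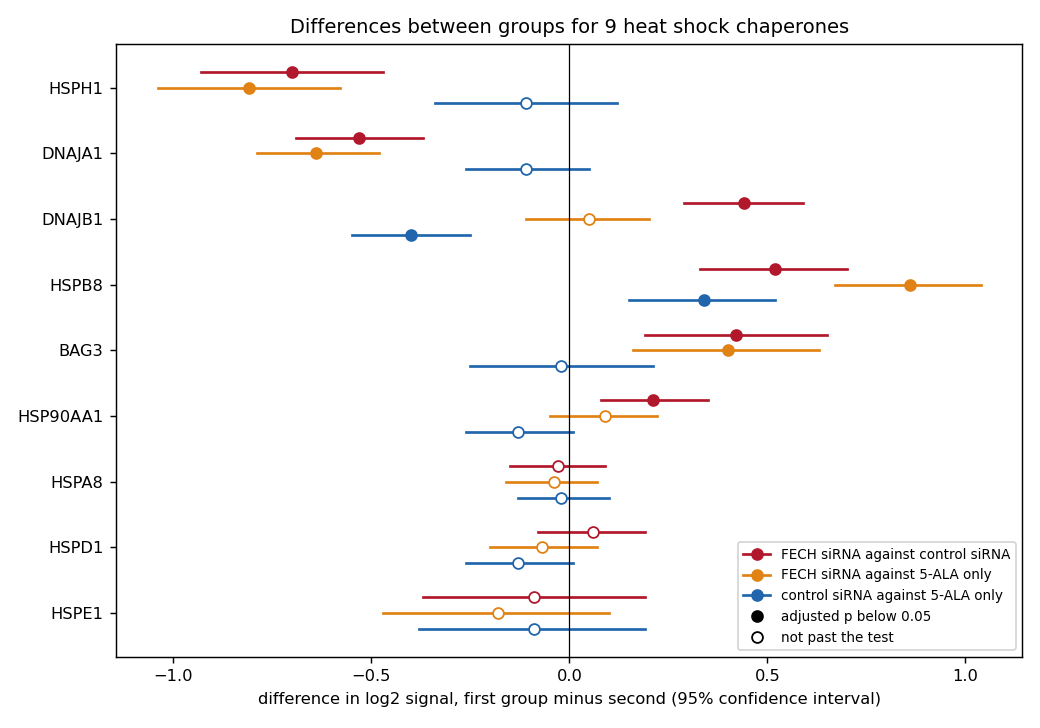
Log2 difference (x axis) of the 9 members with their own probe set, with 95% intervals from limma. The comparisons are FECH siRNA against control siRNA, FECH siRNA against 5-ALA only and control siRNA against 5-ALA only. Filled points passed the test. HSPH1 and DNAJA1 lie below 0 and HSPB8 and BAG3 above 0 in both comparisons of FECH siRNA, while the intervals of HSPA8, HSPD1 and HSPE1 include 0.

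Set against 5-ALA only, FECH siRNA gave a rise in HSPB8 and BAG3 and a fall in HSPH1 and DNAJA1, and the other 5 members did not pass. Of all genes, 37.0% passed in this comparison, with 19.5% higher and 17.5% lower, so the 4 of 9 members are close to that background. HSPB8 was 1.81-fold higher (log2 difference 0.86, limma adjusted p = 4.8e-06) and HSPH1 1.75-fold lower (-0.81, limma adjusted p = 5.4e-05). DNAJA1 was 1.56-fold lower (-0.64) and BAG3 1.32-fold higher (0.40, limma adjusted p = 0.0104, or 0.0546 without the second FECH siRNA array). The shared HSF1 probe set was 1.16-fold higher (0.22, limma adjusted p = 0.0416), where 32.3% of the probe sets passed. This call was lost in 10 of 20 alternatives. With the run as a block the limma adjusted p was 0.00669 for this probe set and 0.00015 for BAG3.

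HSPB8, BAG3, HSPH1 and DNAJA1 also passed against no treatment, where 37.3% of all genes passed, 21.0% as higher and 16.3% as lower. HSPB8 was higher by 0.84 and BAG3 by 0.32, and HSPH1 and DNAJA1 differed by -0.85 and -0.63 on the log2 scale. The BAG3 call (limma adjusted p = 0.034) was lost without the third untreated array, the one that stood apart (limma adjusted p = 0.11), without the first untreated array (0.051), and without the first or the second FECH siRNA array (0.089 and 0.142). The shared HSF1 probe set was 1.15-fold higher (0.21, limma adjusted p = 0.05 and just under the threshold, with 32.9% of the probe sets called), and this call was lost in 14 of 20 alternatives. With the run as a block, BAG3 and the shared HSF1 probe set passed against no treatment (limma adjusted p = 0.000802 and 0.00861). The comparisons of FECH siRNA with the 3 other groups share the FECH siRNA arrays, so they are not independent of one another.

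Control siRNA against 5-ALA only sets cells transfected with an siRNA beside untransfected ones, both under 5-ALA. HSPB8 rose and DNAJB1 fell among the 9 members, with the values given above, while 6.20% of all genes passed, 2.52% as higher and 3.68% as lower. Against no treatment DNAJB1 alone passed, as lower, and 4.62% of all genes did, 2.39% as higher and 2.22% as lower. Each count rests on 1 or 2 genes.

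5-ALA without siRNA gave no call among the members. None of the 9 passed in 5-ALA only against no treatment, and none had an unadjusted p below 0.05 by limma. Their log2 differences lay between -0.08 for BAG3 and 0.10 for HSPE1, with 95% intervals of -0.31 to 0.15 and -0.18 to 0.39. In that comparison 2 of 12151 genes passed (0.0165%), and 343 had an unadjusted p below 0.05.

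The main heat-inducible HSP70 is encoded by HSPA1A and HSPA1B, near-identical neighbours that the array cannot separate. They share 5 probe sets and were not among the 10 members, and the one described here was chosen after its values were seen. Its log2 signals were 10.62, 10.62 and 11.06 with FECH siRNA, 10.56, 10.53 and 10.40 with control siRNA, 10.29, 10.55 and 11.07 with 5-ALA only, and 10.56, 10.53 and 11.41 without treatment. The third array was the highest of its group in all groups but control siRNA. It passed in no comparison, with a log2 difference of 0.27 between FECH siRNA and control siRNA (95% interval -0.22 to 0.77, limma adjusted p = 0.397) that was 0.06, 0.10 and 0.67 within the 3 runs.

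**Figure D2:**
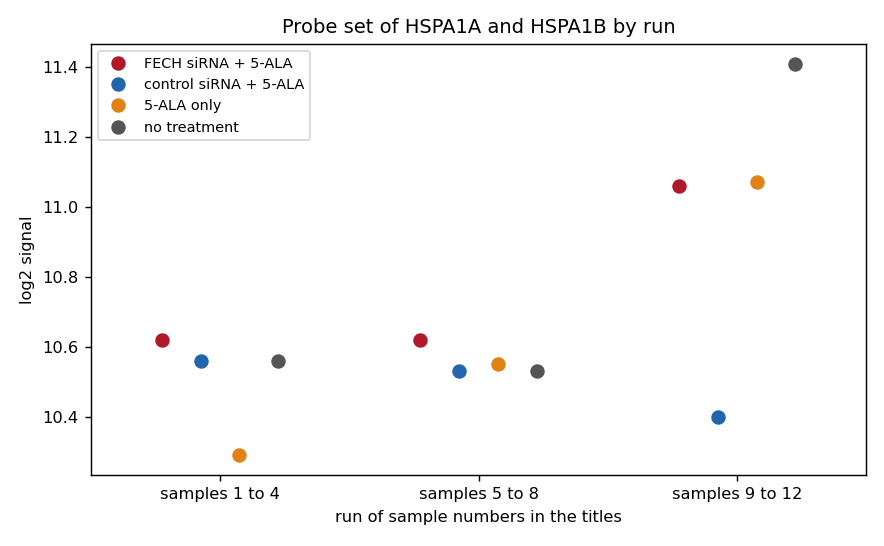
Log2 signal (y axis) of a probe set shared by HSPA1A and HSPA1B in the 3 runs of sample numbers (x axis), 1 point per array, coloured by group. In samples 9 to 12 the FECH siRNA, 5-ALA and untreated arrays read 11.06, 11.07 and 11.41, and the control siRNA array read 10.40.

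The 10 lists of chaperone genes, which cover the network around the members, held 114 symbols that are no members, of which 96 were tested. With FECH siRNA against control siRNA, 14 rose, 10 fell and 72 did not pass. That is 25% called, against 38.3% of all genes, with a median log2 difference of 0.06, against 0.00 for all genes. With the run as a block, 27 rose and 13 fell, or 41.7%, against 46.8% of all genes in the same fit. FECH siRNA against 5-ALA only gave 15 higher and 16 lower, or 32.3%, against 37.0% of all genes. Against no treatment it gave 15 higher and 17 lower, or 33.3%, against 37.3% of all genes. Control siRNA gave none higher and 3 lower against 5-ALA only (3.12%, against 6.20% of all genes). Against no treatment it gave none higher and 2 lower (2.08%, against 4.62% of all genes), while 5-ALA against no treatment gave none. With the run as a block control siRNA gave 8 calls against 5-ALA only (8.33%, against 13.6% of all genes) and 5 against no treatment (5.21%, against 10.7% of all genes).

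Among J-domain proteins other than DNAJA1 and DNAJB1, 2 of 25 rose and 4 fell with FECH siRNA against control siRNA. Of all genes, 38.3% passed there. DNAJB11, which serves the HSP70 of the endoplasmic reticulum, averaged 7.79 with FECH siRNA and 9.99 with control siRNA, 4.62-fold lower (limma adjusted p = 1.7e-09). DNAJC16 was 1.98-fold lower and DNAJB14, a J-protein of the endoplasmic reticulum membrane, 1.65-fold lower. DNAJB5 was 1.26-fold higher (limma adjusted p = 0.0073). These 4 were named for having the largest changes past the test, so they do not stand for the list. With the run as a block 4 of the 25 rose and 5 fell, in a fit that called 46.8% of all genes.

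Of 10 exchange factors and BAG proteins other than BAG3, 1 rose and 3 fell, beside 38.3% of all genes called. BAG1, an exchange factor for HSP70, averaged 8.40 with FECH siRNA and 8.80 with control siRNA (log2 difference -0.40), and BAG4 averaged 8.23 with FECH siRNA and 8.96 with control siRNA (-0.73). The mitochondrial exchange factors GRPEL1 and GRPEL2 split, with GRPEL1 at 10.44 with FECH siRNA and 10.11 with control siRNA (0.33), and GRPEL2 at 9.38 with FECH siRNA and 10.19 with control siRNA (-0.81). Of the BAG family, BAG3 was thus higher and BAG1 and BAG4 lower. BAG2, BAG5 and BAG6 did not pass the limma test (log2 differences -0.01, 0.11 and 0.08).

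In the mitochondrion, 5 of 13 chaperones and proteases other than HSPD1 and HSPE1 rose and 2 fell, while 38.3% of all genes passed. HSPA9, the mitochondrial HSP70, averaged 12.12 with FECH siRNA and 11.63 with control siRNA, a log2 difference of 0.49 (limma adjusted p = 9.9e-05). It passed with smaller differences against 5-ALA only (0.29) and no treatment (0.37). LONP1, chosen after its values were seen, was higher by 0.35 than with control siRNA. It did not pass against 5-ALA only (0.01) or no treatment (0.04). CLPB, a disaggregase, was 1.31-fold higher. CLPX, the unfoldase of the CLPXP protease, was 1.30-fold lower (limma adjusted p = 0.00083). The HSP60 pair itself, as given above, did not pass.

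Of 14 subunits of the cytosolic chaperonin TRiC and its partner prefoldin, 1 rose and 2 fell, against 38.3% of all genes called. CCT2 was 1.58-fold and CCT4 1.32-fold lower with FECH siRNA, and the prefoldin subunit PFDN2 was 1.32-fold higher. In this list 2 rose and 3 fell with the block, which called 46.8% of all genes. Of 15 chaperones of the endoplasmic reticulum, HSPA5 rose and DNAJB11 and DNAJC3 fell, or 20%, against 38.3% of all genes. HSPA5, the HSP70 of that compartment, was at 13.32 with FECH siRNA and 13.14 with control siRNA (limma adjusted p = 0.045), and did not pass against 5-ALA only (log2 difference 0.03) or no treatment (0.07). Under the block, which called 46.8% of all genes, the counts for the 15 of the endoplasmic reticulum were 6 higher and 2 lower.

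Among the other cytosolic HSP70, HSP110 and HSP90 genes, 1 of 8 rose, while 38.3% of all genes passed (46.8% with the block). It was HSPA2, an HSP70 with its highest levels in testis, close to the filter level. HSPA2 averaged 7.49 with FECH siRNA and 7.27 with control siRNA (limma adjusted p = 0.031). Under the block 3 of the 8 rose, HSPA2 with HSPA4L (log2 difference 0.33, limma adjusted p = 0.107 without the block and 0.00594 with it) and HSP90AB1 (0.14, 0.13 without the block and 0.0326 with it). HSPA4L is an HSP110 protein like HSPH1, and HSP90AB1 is the constitutive cytosolic HSP90. Of 12 co-chaperones of HSP90 and HSP70, the phosphatase PPP5C rose (9.36 with FECH siRNA and 9.11 with control siRNA), and with the block CHORDC1 rose as well (log2 difference 0.36, limma adjusted p = 0.144 without the block and 0.0401 with it). Of the other small heat shock proteins 2 were tested and neither passed, with CRYAA at a log2 difference of -0.15 (limma adjusted p = 0.23). HSPB1, the other one, fell with the block (log2 difference -0.14, limma adjusted p = 0.294 without the block and 0.0445 with it). HSPA4L, HSP90AB1, CHORDC1 and HSPB1 were chosen after their values were seen. Of 4 heat shock factors and regulators, HSF2BP, which binds HSF2, was higher by 0.58 on the log2 scale (limma adjusted p = 0.00012).

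Genes known as targets of HSF1 did not move as one. Of 22 tested, members included, 6 rose and 2 fell, or 36.4%, against 38.3% of all genes, and their median log2 difference was 0.14. With the run as a block 11 rose and 3 fell, or 63.6%, against 46.8% of all genes in the same fit. Without the members, 2 of 13 rose and none fell: CACYBP, at 10.99 with FECH siRNA and 10.68 with control siRNA (limma adjusted p = 0.022), and MRPL18, at 9.67 with FECH siRNA and 9.38 with control siRNA (limma adjusted p = 0.007). With the block 7 of the 13 rose and 1 fell. For MRPL18, as for DNAJB1, the control siRNA group was the one apart: it was lower with control siRNA than with 5-ALA only (log2 difference -0.39, limma adjusted p = 0.00772) and than without treatment (-0.37, limma adjusted p = 0.0127). With FECH siRNA it did not pass against 5-ALA only (-0.10) or no treatment (-0.08). CACYBP did not pass against 5-ALA only (0.20, limma adjusted p = 0.14, or 0.0119 with the block) or no treatment (0.13). HSPH1 and DNAJA1, which fell in each comparison of FECH siRNA, stand in this list beside HSPB8 and BAG3, which rose in each. DNAJB1 and HSP90AA1 stand in it as well, and passed as higher with FECH siRNA only against control siRNA.

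**Figure D3:**
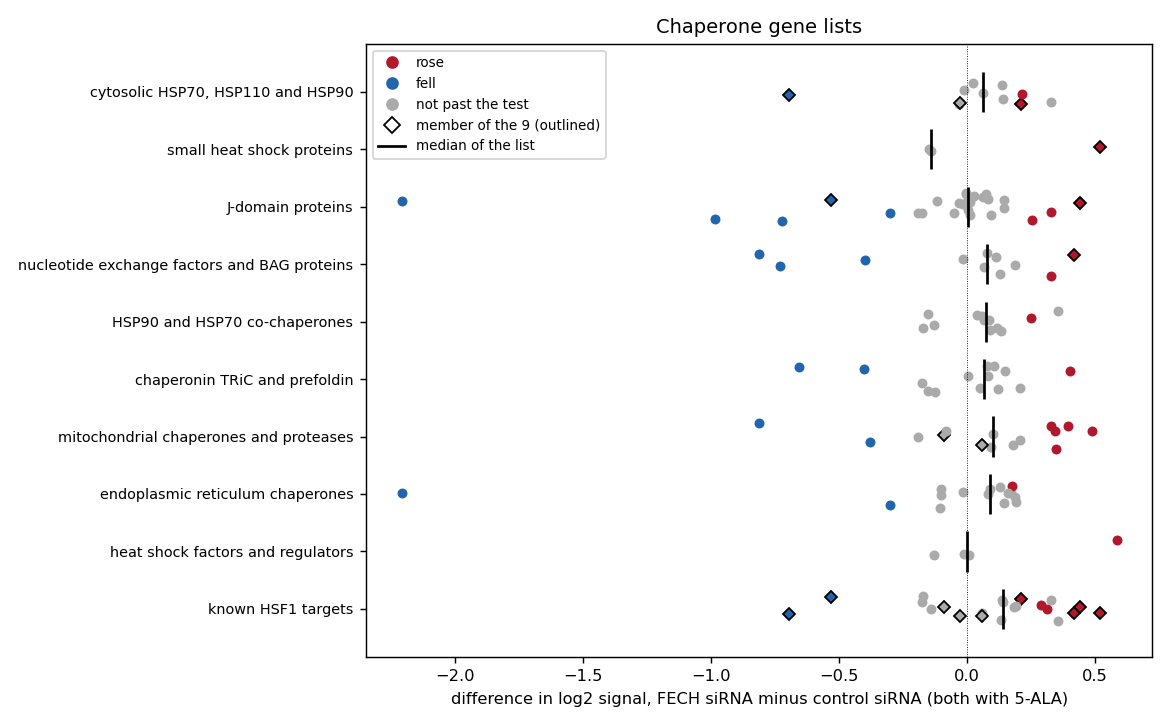
Log2 difference of FECH siRNA minus control siRNA (x axis) for every tested gene of the 10 chaperone lists (y axis), 1 point per gene, with members as outlined diamonds, genes that rose in red, genes that fell in blue and list medians as bars. DNAJB11 lies lowest at -2.21.

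The genes whose signal was most like that of a member over the 12 arrays were sought for the 3 members that differed most between the 4 groups. For HSPB8 they were TOR1B (Pearson r = 0.982), an ATPase of the endoplasmic reticulum, and SLC25A39 (0.981), a mitochondrial carrier. For DNAJA1 they were LETM1 (0.992), a protein of the mitochondrial inner membrane, and PPA1 (0.988), a cytosolic pyrophosphatase. For HSPH1 they were IDH3A (0.991), a subunit of a citric acid cycle enzyme, and TIMM17A (0.986), a subunit of the mitochondrial import channel. These are correlations over 12 arrays in 4 groups, so they follow the differences between groups. None of the 6 is in the chaperone lists.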

How the data were processed

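Total RNA of 12 samples of MDA-MB-231 cells was labelled with biotin and hybridised to arrays of 28869 probe sets. Signals were computed by RMA in oligo, per the submitters' processing notes, a method that subtracts background, equalises the distributions of the arrays and sums up each probe set. The sources used here give neither versions nor a genome build. The authors deposited each value as a linear intensity, from 21 to 23641. Since log2 values had been foreseen, their log2 was computed (pseudocount 0). Another 12 columns of values per sample in the deposited workbook were not used, because their names do not say which sample they hold. Array medians lay between 7.25 and 7.34. No depth applies to arrays, and their number limits the precision.

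Probe sets with no symbol (6741) or several (2191) were left out of the gene tests. Of the 19937 others, 19309 were given current symbols through their Entrez number. A gene was tested if a probe set exceeded 7.29, the median, on at least 3 arrays, and the one with the highest mean stood for its symbol. limma 3.58.1 in R 4.3.3 (with version 1.17.8 of data.table) fitted 1 mean per group over 12 arrays, with eBayes and two-sided p-values adjusted by Benjamini-Hochberg within each of 6 comparisons over 12151 genes (threshold 0.05). The fit was tested on simulated data. An exact permutation test of 3 against 3 arrays cannot go below p = 0.1. The probe set shared by HSF1 was tested among 15032 probe sets.

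The members and lists were chosen with earlier results of these data known. The text names all members, FECH, up to 4 genes per chaperone list with the largest change past the test in FECH siRNA against control siRNA (or the lowest p), and for the 3 members with the largest F statistic the 2 genes most correlated with each. The titles' sample numbers form 3 runs, each with 1 array per group. Deviations from the group means correlated at 0.207 to 0.539 between arrays of 1 run and at -0.436 to 0.154 between runs, so the numbers pair the arrays, and a fit with the run as a block is given beside those results whose calls, or counts by over 1.5 times, it moved. Other alternatives were the filter, the variance model, the groups fitted, cyclic loess, median centring, array weights, the mean of a symbol's probe sets and leaving out each array. Promoter sequences are from RefSeq (GRCh38.p14), and no protein sequences were used here. One marker gene is not reported here and was left out of its list.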

Additional observations from a re-analysis of the deposited data

How the results depend on the processing

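No called value of a member reversed its sign in any of the 21 alternatives (20 for the shared HSF1 probe set). Of 1254 values recomputed over 60 pairs of a gene and a comparison, 1205 kept their side of the threshold, 45 lost a call and 4 gained one. HSPH1, DNAJA1, HSPB8, DNAJB1 and BAG3 kept their calls for FECH siRNA against control siRNA in all 21, with limma adjusted p-values of at most 0.00142, 0.000634, 0.00238, 0.00145 and 0.0407. The number of members called in control siRNA against no treatment was 1, and became 2 with the filter at the 70th percentile, with the replicate block and with array weights, as HSPB8 was added. In control siRNA against 5-ALA only it was 2, and became 1 with each array centred on its median, as HSPB8 was lost (adjusted p = 0.09). With 1 array left out at a time, the counts were 5 to 6 for FECH siRNA against control siRNA, 3 to 4 against 5-ALA only and 3 to 4 against no treatment. They were 1 to 2 for control siRNA against 5-ALA only, 0 to 2 against no treatment and 0 for 5-ALA against no treatment. BAG3 against no treatment also lost its call with cyclic loess (adjusted p = 0.062). The replicate block changed no other call of a member, and for the other chaperone genes it raised the calls from 24 to 40 in FECH siRNA against control siRNA, from 3 to 8 in control siRNA against 5-ALA only and from 2 to 5 in control siRNA against no treatment. Over all genes the block raised the calls as well, from 4651 to 5683, from 753 to 1652 and from 561 to 1296. Cyclic loess and centring moved the median of all genes by at most 0.018 and 0.041 on the log2 scale.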
